A study of Mus musculus with 6 samples.

Results

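SINE-B1 elements are short interspersed repeats, and the mouse genome holds many copies of them, often within and near genes. The CpGs described here are the autosomal CpG cytosines that lie inside, or within 500 bp of, a SINE-B1 copy. A copy was located as an in-silico amplicon of the SINE-B1 qPCR primers of the study in GRCm38, at most 500 bp long and with at most 2 mismatches in each primer. A cytosine was a member when at least 6 reads covered it in all 6 libraries. The rule gave 9263 cytosines of the 636736 autosomal CpG cytosines covered in this way. They belonged to 3417 of the 34828 autosomal copies, with a median of 2 and at most 31 cytosines per copy.

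B1 copies derive from the 7SL RNA gene and are transcribed by RNA polymerase III when they are active. In somatic tissues most CpGs of such repeats carry 5-methylcytosine (5mC), and CpGs at the 5' ends of genes mostly do not. UHRF1 binds hemimethylated CpGs after replication and recruits the maintenance methyltransferase DNMT1, so that the pattern is copied to the new strand.

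The levels come from Ox-RRBS, reduced representation bisulfite sequencing with an oxidation step, of the whole cortex of C57BL/6 mice at embryonic day 16. The assay reads fragments cut by MspI at CCGG, and the oxidation removes 5-hydroxymethylcytosine from the signal. There were 3 libraries of Uhrf1 heterozygous embryos (Uhrf1 +/-, called control) and 3 of Uhrf1 conditional knockout embryos (cKO). In the study, Cre driven by the Emx1 locus deletes the floxed exon 4 of Uhrf1 in the dorsal telencephalon, and the controls also lack 1 functional allele. The dissected cortex still holds cells without Cre activity, such as interneurons from the ventral telencephalon, blood vessels and microglia, so a level is an average over recombined and other cells. No library listed a cytosine in exon 4 of Uhrf1, so the deletion itself could not be read here. The labels do not say which litter a library came from, and the p-values cover only the spread over these 6 libraries.

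The libraries held 18238737 to 31019082 reads over listed cytosines, and the median coverage of the members was 19 to 26 reads per library. One library stood apart before any comparison. The library labelled control replicate 1 had a mean methylation of 26.3% over the members, at the level of the cKO libraries, and each comparison with the controls is therefore given with and without it. Its label was kept.

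The most frequent amplicon sequence was shared by 1094 of 36733 copies on the nuclear chromosomes (2.98%). It is shown first, at one of its places in the genome, because its 5 CpGs, in capitals, give the positions used for the profile along a copy. Position 1 is the first base of the forward primer site, and the CpGs lie at positions 4, 8, 27, 44 and 58. The other lines show one copy for each number of mismatches summed over both primers, from the 20 bases before the forward primer site to the end of the amplicon, read in the direction of the copy. In the classes with 2, 3 and 4 mismatches these are the copies with most member cytosines inside the amplicon, with ties settled by reads. No copy with 0 or 1 mismatches had a member inside, and the one with the largest read sum in its lowest library is shown. Capitals again mark the CpGs.
Most frequent amplicon, chr1:3385061-3385125, plus strand: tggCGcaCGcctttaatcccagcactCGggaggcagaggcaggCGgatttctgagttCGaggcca
Copy with 0 mismatches, chr5:34572967-34573050, minus strand: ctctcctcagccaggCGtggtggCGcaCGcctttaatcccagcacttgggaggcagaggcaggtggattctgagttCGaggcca
Copy with 1 mismatch, chr6:134594419-134594518, plus strand: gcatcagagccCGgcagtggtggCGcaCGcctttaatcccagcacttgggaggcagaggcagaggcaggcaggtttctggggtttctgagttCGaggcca
Copy with 2 mismatches, chr5:74003931-74004019, minus strand: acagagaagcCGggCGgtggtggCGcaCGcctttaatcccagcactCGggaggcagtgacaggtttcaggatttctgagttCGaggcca
Copy with 3 mismatches, chr7:119411129-119411213, plus strand: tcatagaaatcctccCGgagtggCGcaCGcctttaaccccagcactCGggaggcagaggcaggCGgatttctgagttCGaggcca
Copy with 4 mismatches, chr17:30037335-30037431, minus strand: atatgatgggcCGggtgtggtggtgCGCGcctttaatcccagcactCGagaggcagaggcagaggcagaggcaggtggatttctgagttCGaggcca

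Mismatches were counted against primer letters that were read from a page image. Of all copies, 36051 (98.1%) carried 2 mismatches in the reverse primer site, and in 23861 (65.0%) the last 21 bases equalled the target of the reverse primer with 1 base inserted. The number of mismatches therefore mostly tracks the forward primer site. Amplicons were 65 bp long in 90.6% of copies. A CCGG inside the amplicon or in the 20 bases before it was found in 46.5% of autosomal copies, in 70.3% of copies with a member and in 87.9% of the 140 copies with a member inside the amplicon. Among the members 4735 cytosines (51.1%) were the CpG of a CCGG.

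The CpGs around SINE-B1 copies were less methylated in cKO libraries than in control replicates 2 and 3. The mean level over the 9263 cytosines was 26.3%, 64.1% and 63.7% in control replicates 1 to 3. It was 32.6%, 31.7% and 26.2% in cKO replicates 1, 2 and 3. Control replicates 2 and 3 lay above all cKO libraries, and control replicate 1 lay between cKO replicates 2 and 3. Over all libraries the control mean was 51.4% ± 21.7 (SD, n = 3) and the cKO mean 30.2% ± 3.46 (SD, n = 3), a difference of -21.2 points that did not pass the two-sided exact permutation test over libraries (p = 0.3, where 0.1 is the smallest p the design allows). Without control replicate 1 the difference was -33.7 points (exact permutation p = 0.1, again the smallest p), and the cKO libraries kept 47.2% of the level of control replicates 2 and 3.

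The shift was broad rather than a loss at a few sites. At 1 kb or more from the 5' end of a protein-coding gene (7672 cytosines), the median cytosine was at 84.6% in both control replicates 2 and 3. It was at 37.5%, 35.7% and 28.3% in cKO replicates 1, 2 and 3, and at 28.6% in control replicate 1. In control replicates 2 and 3, 34.5% and 37.0% of these cytosines were methylated in at least 90% of reads. In the other 4 libraries the share was between 1.55% and 2.05%. The share of cytosines at 10% or less rose less far, from 6.84% and 7.08% in control replicates 2 and 3 to between 10.5% and 13.6% in the cKO libraries, with 18.5% in control replicate 1. Most cytosines in the cKO libraries were thus at intermediate levels, between 84.9% and 87.7% of them lying above 10% and below 90%.

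**Figure D1:**
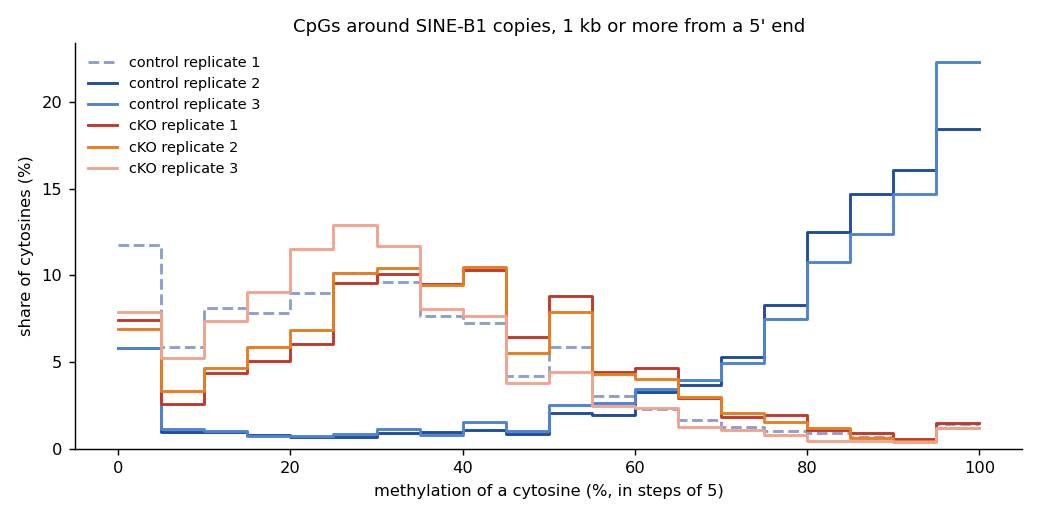
Share of cytosines (y axis, %) by methylation level (x axis, %, in steps of 5) for the 7672 CpGs around SINE-B1 copies at 1 kb or more from a protein-coding 5' end, one line per library. Control replicates 2 and 3 pile up at the right, where 34.5% and 37.0% of cytosines are at 90% or more, and the other 4 libraries, control replicate 1 (dashed) among them, spread over the middle.

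Of the members 246 (2.66%) lay inside an amplicon, in 140 copies. They were more methylated than the members outside in every library. Inside, the mean level was 46.3%, 85.5% and 86.8% in the controls, in the order of their replicate numbers, and 53.9%, 52.2% and 46.8% in the cKO libraries. Outside, over 9017 cytosines, it was 25.7%, 63.5% and 63.1% in the controls and 32.0%, 31.2% and 25.7% in the cKO libraries. Control replicate 1 was the lowest of the 6 libraries inside. The inside level exceeded the outside level in 6 of 6 libraries, by 21.7 points on average (SD 1.11 over libraries). This passed a two-sided exact sign-flip permutation test over libraries (p = 0.03125, the smallest p it can give for 6 libraries). The difference was 12.1 points at a coverage minimum of 20 reads, and 14.2 points with each copy weighted equally.

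The loss in cKO libraries was -35.2 points inside and -33.7 points outside relative to control replicates 2 and 3, so that 59.2% of the level was kept inside and 46.8% outside. The ratio of inside to outside was 1.36 in these controls and 1.73 in the cKO libraries, and 1.80 in control replicate 1. It did not differ between groups over all libraries (exact permutation p = 0.3), and reached the smallest p of the design without control replicate 1 (exact permutation p = 0.1). The difference in points overlapped between groups with all libraries (exact permutation p = 0.6). Without control replicate 1 it was 22.0 and 23.7 points in the controls and 21.9, 20.98 and 21.2 points in the cKO libraries, separate and at the smallest p (exact permutation p = 0.1), and so lower in cKO where the ratio was higher. By group, the fall itself had exact permutation p-values, adjusted over both places, of 0.4 with all libraries and 0.1 without control replicate 1.

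The gap between inside and outside moved with distance to gene 5' ends: 8 of the 246 cytosines inside and 1583 of the 9017 outside lay under 1 kb from a 5' end. At 1 kb or more from a 5' end the gap was 14.9 points (SD 2.27) and still positive in 6 of 6 libraries (exact sign-flip p = 0.03125, 0.0347 after Benjamini-Hochberg adjustment over the 10 contrasts chosen after seeing the data). Against the first 50 bp outside it was 6.24 points (6 of 6 libraries, exact sign-flip p = 0.03125, adjusted 0.0347). The ring means of control replicates 2 and 3 fell with distance from the amplicon. The amplicon need not span the whole repeat, so the nearest rings can still lie in it. Of the 1152 cytosines within 50 bp, 967 lay in the 25 bp before the forward primer site. At 1 kb or more from a 5' end, control replicates 2 and 3 averaged 82.5% within 50 bp, 78.0% from there to 100 bp, 77.0% up to 250 bp and 70.2% up to 500 bp. The cKO libraries averaged 43.7%, 32.4%, 36.1% and 30.9% in the same rings. The cKO mean was thus lower in the ring that ends at 100 bp, with 319 cytosines, than in the next one. The first ring exceeded the last by 12.7 points in 6 of 6 libraries (SD 0.606; exact sign-flip p = 0.03125, adjusted 0.0347).

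**Figure D2:**
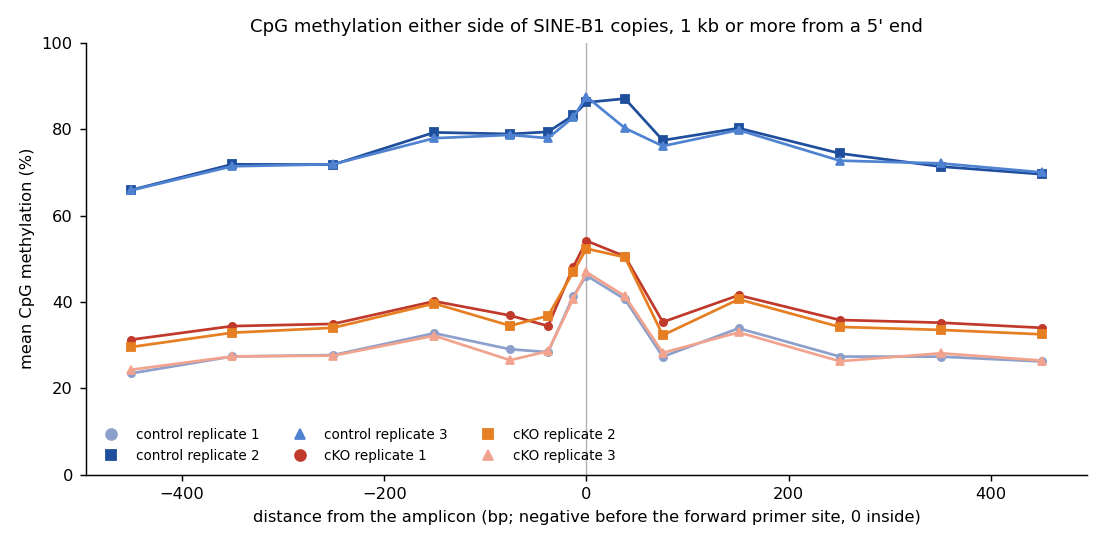
Mean CpG methylation (y axis, %) against distance from the amplicon in bp (x axis, negative before the forward primer site, 0 for cytosines inside), one line per library, at 1 kb or more from a protein-coding 5' end and for bins of at least 20 cytosines. Inside the amplicon control replicates 2 and 3 are at 86.2% and 87.5% and the other 4 libraries between 46.1% and 54.2%. Each of these is above the same library's levels before the forward primer site. In the bin at 26 to 50 bp after the reverse primer site, with 22 cytosines, control replicate 2 is at 87.1%, above its level inside.

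Along copies of 65 bp, the positions with at least 20 covered cytosines could be read one by one. The CpG at position -8 lay in a CCGG for 98.6% of its 492 cytosines, and its level was 42.6%, 82.2% and 81.9% in the controls and 48.1%, 47.1% and 41.4% in the cKO libraries. Inside, the CpGs at positions 4 and 8 of the copy, in the forward primer site, averaged 57.8% and 51.7% over the cKO libraries against 87.5% and 84.3% in control replicates 2 and 3. The CpG at position 27 averaged 55.0% against 91.6%. The CpG at position 58, in the reverse primer site, averaged 39.7% against 91.6% and so kept 43.3% of the control level, the least of these positions inside. It rested on 23 cytosines. The CpG at position 44, as numbered in the most frequent amplicon, had fewer than 20 covered cytosines. Of the 134 copies with that most frequent sequence and a member, 0 had a member inside. The levels inside therefore come from copies with other amplicon sequences.

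The mismatch classes order the copies by how far their primer sites differ from the primers. Members belonged to 1 copy with 0 mismatches (6 cytosines), 16 copies with 1 (46 cytosines), 878 copies with 2 (2594), 1472 with 3 (3924) and 1050 with 4 (2693). With 2 mismatches the level was 24.8%, 58.0% and 57.9% in the controls and 29.9%, 29.7% and 25% in the cKO libraries. With 3 mismatches it was 26.7%, 66.1% and 65.4% in the controls and 33.3%, 32.7% and 26.8% in the cKO libraries. With 4 mismatches it was 27.1%, 66.9% and 66.7% in the controls and 34.0%, 32.1% and 26.5% in the cKO libraries. In each of these classes control replicates 2 and 3 lay above the cKO libraries, which kept 48.7%, 47.1% and 46.2% of their level. No class passed the exact permutation test with all libraries (adjusted p = 0.4 in each) and each reached the smallest p without control replicate 1 (exact permutation, adjusted p = 0.1).

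The lower level with 2 mismatches moved with gene 5' ends, where 608 of 2594 cytosines lay under 1 kb against 397 of 2693 with 4. Over all members, copies with 2 mismatches differed from copies with 4 by -4.67 points, negative in 6 of 6 libraries (exact sign-flip p = 0.03125, adjusted 0.0347). At 1 kb or more from a 5' end the difference was -1.03 points and positive in 3 of 6 libraries (exact sign-flip p = 0.34375). Copies with 0 or 1 mismatches averaged 8.32 points more than copies with 3 or 4 in 6 of 6 libraries (exact sign-flip p = 0.03125), on 52 cytosines. That difference turned to -4.66 points at a coverage minimum of 20 reads, and to -5.53 points when mismatches were counted with 1 base inserted in the reverse site, so no order of these classes is read from it. The sole copy with 0 mismatches lay 634 bp from the 5' end of Add1, which encodes a membrane skeleton protein. Its 6 cytosines, all outside the amplicon, were at 0% in the 3 controls and at 1.96%, 2.87% and 1.52% in the cKO libraries.

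Inside the amplicon the mismatch classes separated in the other direction. With 2 mismatches (66 cytosines, 28 copies) the level was 58.6%, 88.1% and 87.8% in the controls and 64.5%, 64.3% and 63.2% in the cKO libraries. With 3 mismatches (109 cytosines, 63 copies) it was 44.2%, 86.4% and 88.7% in the controls and 53.2%, 50.6% and 43.7% in the cKO libraries. With 4 mismatches (71 cytosines, 49 copies) it was 38.1%, 81.8% and 82.8% in the controls and 45.2%, 43.3% and 36.5% in the cKO libraries. The cKO libraries thus kept 72.8%, 56.2% and 50.6% of the level of control replicates 2 and 3 as mismatches rose from 2 to 4. Copies with 2 mismatches exceeded those with 4 in 6 of 6 libraries, by 16.4 points (SD 8.81; exact sign-flip p = 0.03125, adjusted 0.0347). The difference was 20.5, 6.29 and 4.92 points in the controls and 19.2, 21.05 and 26.8 points in the cKO libraries, which was not separated between groups with all libraries (exact permutation p = 0.2) and was at the smallest p without control replicate 1 (exact permutation p = 0.1). These contrasts were chosen after seeing the data. All 140 copies with a member inside had 2 mismatches in the reverse site, so the class was set by the forward site. That site holds the CpGs at positions 4 and 8, which a mismatch can remove. Whether the classes cover the same CpG positions was not tested.

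**Figure D3:**
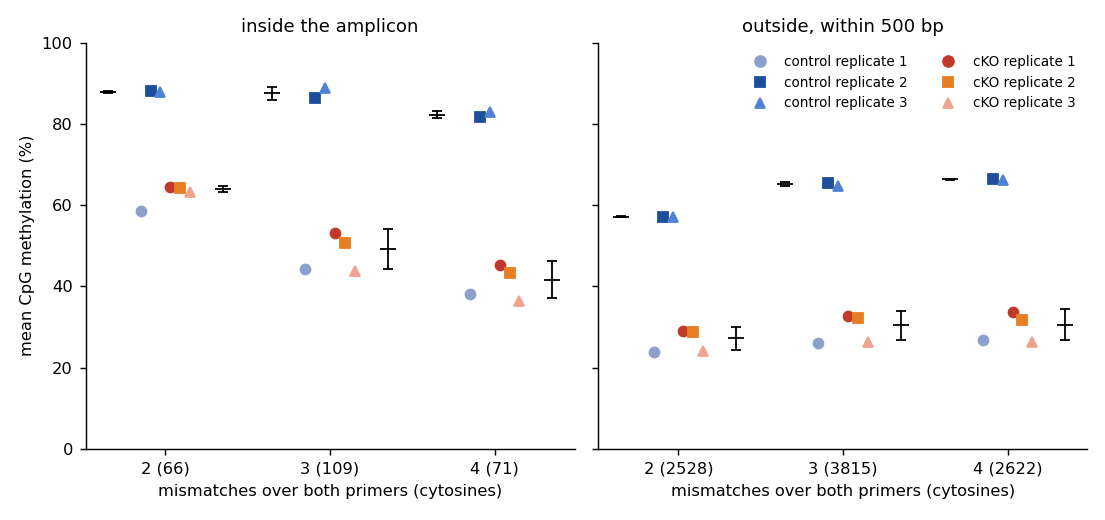
Mean CpG methylation (y axis, %) by number of mismatches over both primers (x axis, number of cytosines in brackets), inside the amplicon (left) and outside (right), one symbol per library. Black bars are the mean and SD of control replicates 2 and 3 and of the 3 cKO libraries; inside, the cKO libraries sit at 63.2% to 64.5% with 2 mismatches and at 36.5% to 45.2% with 4, and outside they lie between 24.0% and 33.7% with 2 to 4 mismatches.

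The copies were not alike in what they kept. Among the 140 copies with a cytosine inside, the mean of the cKO libraries ran from 0% to 100% with a median of 42.3%, and the mean of control replicates 2 and 3 had a median of 91.3%. In 24 of these copies (17.1%) all 3 cKO libraries were at 70% or more. These 24 copies averaged 80.7%, 91.6% and 96.1% in the controls and 85.2%, 86.3% and 84.6% in the cKO libraries, so control replicate 1 was high in them as well. Of the 24, 13 had 2 mismatches, 8 had 3 and 3 had 4. In 47 copies all 3 cKO libraries were under 50%, and of those 6 had 2 mismatches, 22 had 3 and 19 had 4. Among copies with at least 2 cytosines inside, 20 of 79 (25.3%) were at 70% or more in all cKO libraries. Outside the amplicon and at 1 kb or more from a 5' end, 30 of 1848 copies with at least 2 cytosines (1.62%) were. These groups were formed from the measured levels and are given as a description.

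**Figure D4:**
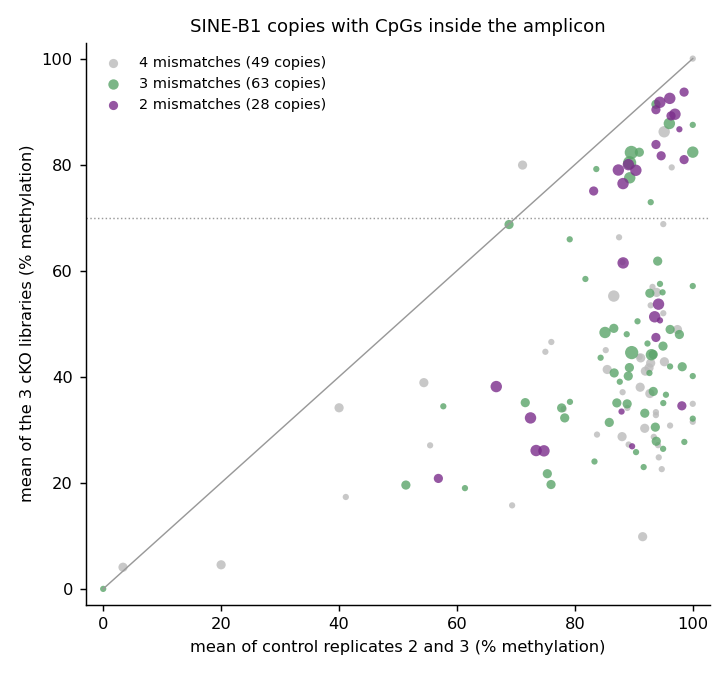
Each of the 140 copies with cytosines inside the amplicon, with the mean of control replicates 2 and 3 (x axis, % methylation) against the mean of the 3 cKO libraries (y axis, % methylation). Color gives the number of mismatches, larger points have more cytosines (1 to 4), the solid line is equality and the dotted line 70%; most copies lie far below the line of equality, and 24 copies, 13 of them with 2 mismatches, have all 3 cKO libraries at 70% or more.

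Reads from near-identical copies can be hard to place. Read placement itself was not measured. Only amplicon sequences were compared with each other, without the flanking bases that a read can also cover. Of the 140 copies, 74 had an amplicon that read the same as that of another copy once every C on the strand of the forward primer was written as T. In those copies (128 cytosines) the level was 52.2%, 87.3% and 88.3% in the controls and 58.4%, 56.7% and 53.4% in the cKO libraries. In the 66 copies whose converted amplicon was found once (118 cytosines) it was 39.9%, 83.6% and 85.1% in the controls and 49.1%, 47.2% and 39.8% in the cKO libraries. With 2 mismatches, the 42 cytosines of shared sequence kept 79.9% of the level of control replicates 2 and 3, and the 24 cytosines of sequence found once kept 58.8%. Of the 24 copies at 70% or more in all cKO libraries, 16 had a shared sequence (66.7%), against 21 of the 47 under 50% (44.7%). The authors accepted alignments without mismatches, and how reads with several places were treated is not given in the sources used here. The part of such reads in the higher level inside was not tested.

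The copies shown for each class were picked by their count of cytosines inside, then by reads, and need not be typical of it. The copy with 2 mismatches lay in an intron of Usp46, a deubiquitinase gene. Its 17 cytosines, 3 of them inside, averaged 31.8%, 86.3% and 83.4% in the controls and 46.0%, 44.7% and 24.5% in the cKO libraries. The copy with 3 mismatches lay between genes, 48072 bp from the 5' end of Gp2, and 4 of its 5 cytosines were inside. It averaged 29.6%, 87.5% and 90.4% in the controls and 50.8%, 45.7% and 35.9% in the cKO libraries. The copy with 1 mismatch, 27474 bp from the 5' end of Lrp6, which encodes a Wnt co-receptor, had 9 cytosines, none inside, at 32.5%, 89.8% and 96.3% in the controls and 45.3%, 56.9% and 22.7% in the cKO libraries. In all of these copies control replicates 2 and 3 lay above every cKO library. The copy with 4 mismatches, in an intron of Zfand3, kept a high level, with 65.0%, 90.2% and 94.2% in the controls and 88.3%, 81.2% and 68.1% in the cKO libraries. It had 4 cytosines and 40 to 112 reads in a library. Inside the amplicon both intron copies went against their class. The Usp46 copy averaged 32.2% over the cKO libraries, against 64.0% for all inside cytosines with 2 mismatches. The Zfand3 copy averaged 86.2%, against 41.7% for all inside cytosines with 4 mismatches.

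The level of the members varied strongly with distance to the nearest protein-coding 5' end. Under 1 kb (1591 cytosines, 281 copies) the level was 5.11%, 10.2% and 9.83% in the controls and 5.96%, 6.61% and 5.83% in the cKO libraries. At 1 to 5 kb (1273 cytosines) it was 27.0%, 71.4% and 70.7% in the controls and 33.4%, 33.1% and 26.8% in the cKO libraries. At 5 to 20 kb (2927 cytosines) it was 30.0%, 76.3% and 75.7% in the controls and 38.4%, 37.0% and 30.1% in the cKO libraries. The bin from 20 to 100 kb (2717 cytosines) was at 31.8%, 75.5% and 75.2% in the controls and 39.1%, 37.2% and 31.2% in the cKO libraries. At 100 kb or more (755 cytosines) it was 35.6%, 76.8% and 77.6% in the controls and 41.7%, 42.1% and 35.3% in the cKO libraries. Control replicates 2 and 3 lay above all cKO libraries in each bin.

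The level rose steeply from under 1 kb to 1 to 5 kb, and little beyond. Cytosines under 1 kb differed from those at 100 kb or more by -44.3 points (SD 17.9), negative in 6 of 6 libraries (exact sign-flip p = 0.03125). It was -67.2 points in control replicates 2 and 3 and -33.6 points in the cKO libraries (exact permutation p for the difference between groups 0.3 with all libraries, 0.1 without control replicate 1). In percent of control replicates 2 and 3, the cKO libraries kept 61.2% under 1 kb, 43.8% at 1 to 5 kb, 46.2% at 5 to 20 kb, 47.6% at 20 to 100 kb and 51.4% at 100 kb or more. No bin passed the exact permutation test with all libraries (adjusted p = 0.4 in each, and 0.1 without control replicate 1).

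CpG density moved with distance. Of the 1591 cytosines under 1 kb, 1171 lay in 200 bp of CpG-island-like sequence (GC of at least 50% and observed to expected CpG of at least 0.6). Their level was 2.28%, 3.26% and 2.85% in the controls and 2.95%, 3.35% and 3.22% in the cKO libraries, so the groups overlapped. The 420 cytosines under 1 kb outside such sequence were at 13.0%, 29.6% and 29.3% in the controls and at 14.3%, 15.7% and 13.1% in the cKO libraries. Over all distances, members with 1 to 2 CpGs in the surrounding 200 bp averaged 77.4% in control replicates 2 and 3 and 33.6% in the cKO libraries. Those with 15 or more CpGs averaged 6.23% and 4.36%. Members in exons (1810 cytosines) averaged 49.3% and 21.9%, those in introns (3927) 70.6% and 33.6%, and those between genes (3526) 64.0% and 30.6%.

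**Figure D5:**
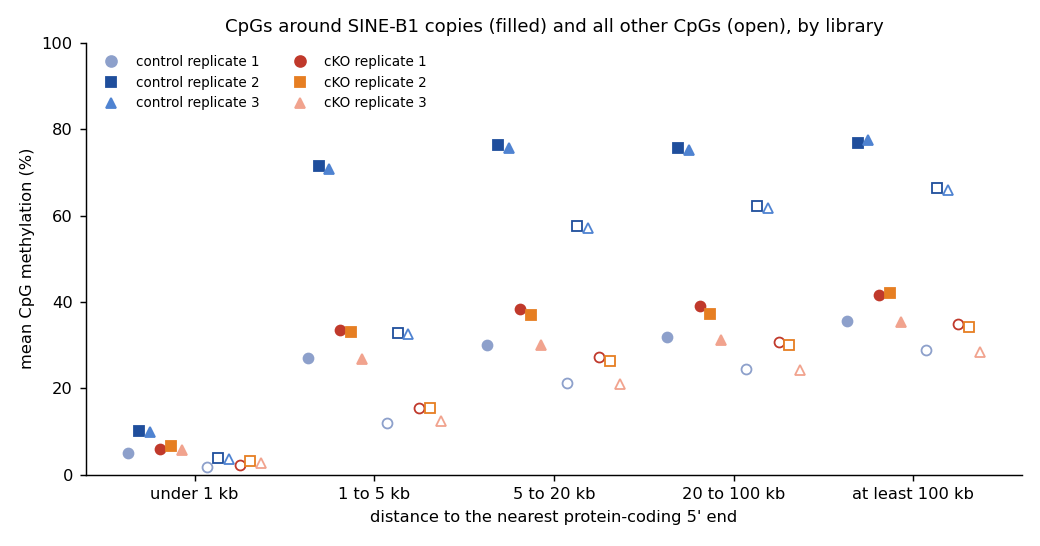
Mean CpG methylation (y axis, %) by distance to the nearest protein-coding 5' end (x axis) for CpGs around SINE-B1 copies (filled symbols) and all other autosomal CpGs (open symbols), one symbol per library. In each bin every library has its filled symbol above its open one, and control replicates 2 and 3 rise from near 10% under 1 kb to between 70.7% and 71.4% at 1 to 5 kb in the members.

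Most named copies under 1 kb from a protein-coding 5' end carried almost no methylation. In the copies named below, 92.3% to 100% of members lay in CpG-island-like sequence. Members under 1 kb outside such sequence averaged 29.4% in control replicates 2 and 3 and 14.4% in the cKO libraries. There were 190 copies with at least 3 members whose amplicon lay under 1 kb from a protein-coding 5' end, and the 8 with most members held 20 to 31 cytosines, none inside the amplicon. The copy near the 5' end of Fance, a gene of the Fanconi anemia core complex, averaged 0.645%, 1.14% and 0% in the controls and 0.709%, 2.55% and 2.22% in the cKO libraries over 31 cytosines. The copies near Thoc1 (mRNA export), Naxe (repair of damaged NADH and NADPH), Spcs1 (signal peptidase complex) and Esco1 (cohesin acetylation) were all at or under 1.72% in every library. The copy near Inka1 was at 3.34%, 4.32% and 1.99% in the controls and 3.36%, 3.64% and 3.36% in the cKO libraries. The exception was the copy in an intron of Taco1, a gene for translation of a mitochondrial cytochrome oxidase subunit, 826 bp from its 5' end. It averaged 20.3%, 34.9% and 23.9% in the controls and 34.0%, 26.4% and 20.1% in the cKO libraries, with groups that overlapped. Its 20 cytosines held 4894 to 8947 reads in a library, and the other 7 copies 256 to 1131.

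At 100 kb or more from a protein-coding 5' end most named copies followed the group. Of 104 copies at 100 kb or more with at least 3 members, the 5 with most had 6 to 14. The copy in an intron of Mgat5, an enzyme gene of N-glycan branching, averaged 25.7%, 88.0% and 84.9% in the controls and 31.9%, 43.9% and 31.1% in the cKO libraries. The copies in introns of Cmip and of Uvrag, a gene of autophagy and endosomal traffic, fell by 50.8 and 51.4 points in the mean of the cKO libraries relative to control replicates 2 and 3. In the copy 213126 bp from the 5' end of Rybp, a Polycomb-associated gene, 4 of 7 cytosines were inside, and the level was 50.6%, 82.4% and 96.3% in the controls and 67.9%, 73.9% and 64.9% in the cKO libraries. The copy with 14 cytosines lay 106112 bp from the 5' end of the zinc finger gene Zfp600, in introns of Gm13166 and Gm26573 and in island-like sequence. It was at 0.549%, 2.14% and 0.881% in the controls and 4.42%, 3.58% and 3.13% in the cKO libraries.

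CpGs around SINE-B1 copies were more methylated than other CpGs in the same bin of distance to a protein-coding 5' end. All other autosomal CpGs (627473) were at 15.4%, 38.7% and 38.4% in the controls and 19.2%, 19.1% and 15.5% in the cKO libraries. The members exceeded them by 16.4 points (SD 7.01) in 6 of 6 libraries (exact sign-flip p = 0.03125, also after adjustment over the 6 contrasts of this kind). By distance the excess was 4.34 points under 1 kb, 23.6 at 1 to 5 kb, 12.8 at 5 to 20 kb, 9.46 at 20 to 100 kb and 8.37 at 100 kb or more, positive in 6 of 6 libraries in each bin (exact sign-flip p = 0.03125 in each, adjusted 0.03125). At 1 to 5 kb, where the excess was largest, other CpGs averaged 32.7% in control replicates 2 and 3, and members were at 71.4% and 70.7%. In that bin 1176 of 1273 members but 43137 of 76066 other CpGs lay outside island-like sequence. There the mean of control replicates 2 and 3 was 73.7% in members and 51.1% in other CpGs. Outside island-like sequence and at 1 kb or more, members exceeded other CpGs by 8.07 points (SD 2.69, 6 of 6 libraries, exact sign-flip p = 0.03125, adjusted 0.0347), a contrast chosen after seeing the data.

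The share lost was compared next. The ratio of members to other CpGs was 1.66 in control replicates 2 and 3, 1.68 in the cKO libraries and 1.71 in control replicate 1, and the exact permutation test between groups gave p = 0.8 (0.2 without control replicate 1). In cKO libraries 47.2% of the level of control replicates 2 and 3 was kept around SINE-B1 copies, and 46.5% in other CpGs. These pooled shares differed by distance. Members kept 61.2% and other CpGs 71.4% under 1 kb, and 43.8% and 44.2% at 1 to 5 kb. The shares were 46.2% and 43.4% at 5 to 20 kb, 47.6% and 45.6% at 20 to 100 kb, and 51.4% and 49.1% at 100 kb or more. Outside island-like sequence and at 1 kb or more, the ratio was 1.18 in control replicates 2 and 3 and 1.22 in the cKO libraries. Its exact permutation p was 0.3 with all libraries and 0.1 without control replicate 1. Around LINE-1 copies, located in the same way (2446 cytosines), the level was 42.2%, 86.4% and 86.5% in the controls and 48.5%, 47.3% and 39.9% in the cKO libraries. Members differed from them by -17.7 points (SD 3.84), negative in 6 of 6 libraries (exact sign-flip p = 0.03125). Around IAP copies, which are endogenous retroviruses (62 cytosines), the level was 56.2%, 80.3% and 82.3% in the controls and 62.6%, 64.8% and 56.9% in the cKO libraries, and the difference of members from it was -26.4 points (SD 7.11; exact sign-flip p = 0.03125). The share kept was 52.3% around LINE-1 and 75.6% around IAP copies. Both cover cytosines inside and within 500 bp of the amplicons, as does the 47.2% of the members. A part of the members picked after seeing the data, the inside of SINE-B1 copies with 2 mismatches (66 cytosines), kept 72.8%. That share was 79.9% for its cytosines of sequence shared with another copy and 58.8% for those of sequence found once. No test compared this part of the members with the IAP copies.

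Windows of 100 bp were then tested one by one. Of 280595 autosomal windows, 5267 held a member. With all 6 libraries, 0 member windows were called lower and 0 higher in cKO by the quasi-binomial test with dispersion moderated by limma, at q under 0.01 and at least 25 points. The background over all windows was 0% in either direction. At an unadjusted p under 0.05 by the moderated test, in either direction, there were 965 of the 5267 member windows and 42265 of all 280595. Limma on the logit scale called 0. A plain binomial test without dispersion called 2538 lower (48.2%, against 37.4% of all windows) and 1 higher (0.019%, against 0.0143% of all windows). Without control replicate 1, 2994 member windows (56.8%) were called lower, against 44.3% of all windows, and 0 were called higher, against 0.00285% of all windows.

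By distance, the share of member windows called lower without control replicate 1 was 10.5% under 1 kb, where 4.87% of other windows were, and 61.9% at 1 to 5 kb, where 38.8% of other windows were. It was 65.6% at 5 to 20 kb (56.7% of others), 61.5% at 20 to 100 kb (56.7%) and 55.3% at 100 kb or more (55.8%). Beyond 20 kb the member windows were thus near the share of other windows, and the median difference was -44.4 points in members and -42.0 points in others at 20 to 100 kb. Windows with a cytosine inside an amplicon were called lower in 94 of 161 cases (58.4%), against 2900 of 5106 (56.8%) for the rest.

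The 5 windows with the largest falls, among 439 with at least 50 reads in every library and all cKO libraries below control replicates 2 and 3, lay in genes. The largest was at chr14:30570201-30570300 in Tkt, the transketolase gene, at 26.7%, 91.9% and 98.2% in the controls and 22.1%, 18.3% and 27.7% in the cKO libraries (q = 6.11e-09 by the moderated quasi-binomial test with limma). The window at chr2:3426301-3426400 in Dclre1c, a gene of DNA end joining, was at 27.1%, 98.0% and 92.8% in the controls and 29.7%, 22.9% and 22.4% in the cKO libraries (q = 6.7e-11). The others lay in Lpcat4, Eif3g, a gene of translation initiation, and Nprl2, a regulator of mTOR signaling, with falls of -69.9, -69.5 and -68.7 points. Window levels sum all covered cytosines, not only members. Members were 2 of 3 cytosines in Tkt, 3 of 3 in Dclre1c, 2 of 4 in Lpcat4, 4 of 4 in Eif3g and 1 of 4 in Nprl2. In all 5 windows control replicate 1 was below 43% (17.9% to 42.3%), and none of their cytosines lay inside an amplicon.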

How the data were processed

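The authors digested genomic DNA with MspI, oxidized and bisulfite-converted it, mapped reads to GRCm38 with Genomatix software allowing no mismatch, and dropped positions of low coverage. The submitters' notes also list methylKit. Each deposited file covers 1 library and holds, for every cytosine, the count of reads and the percent of them read as C, neither normalized nor pooled. Methylated read counts were recovered from both deposited columns, and 100% of values gave whole reads. The cytosines covered in all 6 libraries were CpGs.

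Members and lists were chosen with earlier results of these data known. SINE-B1, LINE-1 and IAP amplicons were searched on both strands, taking for each forward site the nearest reverse site and using each reverse site once; the search was tested on simulated data. Each cytosine was assigned to its nearest copy. Distances are to protein-coding gene records of GENCODE M21; sequences are from the RefSeq copy of GRCm38. Levels weight cytosines equally. Library means were compared with two-sided exact permutation tests (the share of assignments with a difference at least as large in size, smallest p 0.1 for 3 against 3 and 2 against 3), and contexts within libraries with exact sign-flip tests (smallest p 0.03125). PCR reads are not independent molecules, so coverage reflects counting error only.

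Windows of 100 bp were fitted with a binomial group model over all autosomal windows, with Pearson dispersion moderated by limma 3.58.1 (R 4.3.3), a floor of 1 and a prior from windows at 5 to 95% methylation, and Benjamini-Hochberg adjustment. The window fit was tested on simulated data. Python 3.11.15, numpy 2.4.6 and pandas 2.3.3 were used. Named copies are, per mismatch class, the copy with most cytosines inside (not all chromosomes were eligible); the 8 copies under 1 kb and 5 at 100 kb or more from a 5' end with most members (at least 3); and the 5 windows with the largest falls and up to 5 with the largest rises that were called, separated and had at least 50 reads. Alternatives were coverage minimums of 10 and 20, weighting by reads or copies, at most 1 mismatch, a flank of 100 bp, transcript 5' ends, summed strands, a replicate block, other window tests, and leaving out each library. One copy that the rule named is not reported here.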

Additional observations from a re-analysis of the deposited data

How the results depend on the processing

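Under other settings with all libraries, 228 values kept their direction and side of the threshold, 7 turned their sign and 2 counts moved. The mean over members stayed between -21.2 and -24.4 points. Copies with 0 or 1 mismatches minus copies with 3 or 4 turned to -4.66 points at a coverage minimum of 20 and to -5.53 with 1 base inserted in the reverse site (a setting chosen after seeing the data), under which the class with 0 mismatches differed by -17.7 points between groups. The group difference of that contrast turned to 4.74 at a coverage minimum of 20 and 1.37 with copies weighted equally. The group difference of members minus other CpGs at 100 kb or more turned to 2.44 with at most 1 mismatch per primer, and that of inside minus outside to 2.09 with a flank of 100 bp. The cause was not tested. The plain binomial test called 2538 member windows lower (48.2%, against 37.4% of all windows) and 1 higher (0.019% against 0.0143%).

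With one library left out the exact sign-flip test cannot go below p = 0.0625, so its threshold says nothing about stability there. The ranges over the 6 omissions were 21.3 to 21.9 points for inside minus outside, 7.83 to 9.49 for the mismatch contrast, -47.2 to -39.6 for under 1 kb minus 100 kb or more, -18.5 to -16.7 against LINE-1 and -28.5 to -25.1 against IAP. Against other CpGs they were 14.6 to 17.5 in all, and 3.93 to 4.59, 20.6 to 25.4, 11.6 to 13.6, 8.67 to 9.95 and 7.74 to 8.72 from the nearest to the farthest bin. The group difference of inside minus outside ran from -1.49 to 0.089 and that of the mismatch contrast from -2.87 to 1.28. Member windows called lower ran from 0 to 2994, the latter without control replicate 1, and the mean over members from -33.7 without it to -14.8.

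With a replicate block the mean difference over members was -21.2 points (exact sign-flip p = 0.5 over 3 pairs, smallest 0.25) and 0 windows were called. The correlations of same-numbered libraries' deviations were -0.122, 0.0519 and -0.148, so the numbers were not taken as pairs. The inside level rests on 246 cytosines at a median of 16 to 21 reads.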

Other observations

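The rule leaves out the sex chromosomes. On the X chromosome, 128 CpG cytosines within 500 bp of a SINE-B1 copy were covered in all libraries, at 27.5%, 74.7% and 69.8% in the controls, by replicate number, and 40.2%, 35.5% and 30.7% in the cKO libraries. The 9668 other covered X cytosines were at 21.2%, 58.8% and 45.6% in the controls and 31.5%, 24.9% and 25.5% in the cKO libraries. Each library was higher near the copies than elsewhere on X. No test was made on X.

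Outside the amplicon and at 1 kb or more from a 5' end, members in soft-masked sequence, which the reference marks as repeats, exceeded the other members by 9.71 points (SD 0.577) in 6 of 6 libraries (exact sign-flip p = 0.03125, adjusted 0.0347 over the 10 contrasts chosen after seeing the data). The difference was 9.30 points in control replicates 2 and 3 and 9.64 points in the cKO libraries (exact permutation p = 0.9 with all libraries).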
